A study of Homo sapiens with 12 samples.

Results

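RAB proteins are small GTPases that mark the membranes of vesicles and organelles, and the genes described here are the RAB genes detected in C4-2, a castration-resistant descendant of the LNCaP prostate cancer line. A gene entered if its symbol was RAB followed by a number and at most 1 letter from A to D and if it had at least 60 counts over all 12 libraries. Such a symbol was carried by 63 of the 56269 rows of counts, and 55 of them reached 60 counts. The rows that did not were RAB40A with 28 counts, RAB34 with 18, RAB3C and RAB44 with 12 each, RAB7B with 10, RAB42 with 1, and RAB38 and RAB41 with 0. Of the 55 genes, 54 passed the filter on low counts and were tested. RAB33A, the gene with the lowest level inside the threshold, did not and ran from 0.0375 to 0.523 CPM by library, where CPM is the count scaled by library size to the usual common total.

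All cells were transfected with small interfering RNA (siRNA), either a nonspecific one or one against paxillin, a focal adhesion adaptor protein encoded by PXN. After 48 h of transfection and 12 h without serum, cells received ethanol vehicle or 2.5 nM dihydrotestosterone (DHT), a ligand of the androgen receptor, for 24 h. Crossing the siRNAs with the treatments gives 4 groups, called nonspecific vehicle, nonspecific DHT, paxillin vehicle and paxillin DHT, each with 3 libraries of messenger RNA. All of them come from a single cell line, and the labels do not say whether replicates were separate cultures, so that p-values measure the spread between these libraries, which may be technical.

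A RAB protein is active when bound to GTP and inactive when bound to GDP. Guanine nucleotide exchange factors load it with GTP, GTPase-activating proteins end the active state, and the active form recruits effectors that move, tether or dock a vesicle. Escort proteins present new RAB proteins for prenylation, which anchors them in the membrane. Prostate luminal cells are secretory, and RAB3 and RAB27 proteins are best known for guiding secretory vesicles to the plasma membrane, while RAB8, RAB10 and RAB13 act in transport from the Golgi to the cell surface.

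Promoter sequences of 5 genes that rose in DHT in both siRNA arms are shown, because the study added a ligand of a DNA-binding receptor. They were chosen after their values were seen, and RAB27A is among them because 1 of its windows holds a receptor half-site. Each is the stretch of 250 bases just before a start site in RefSeq (build GRCh38.p14), written 5′ to 3′ on the strand of the gene. Capitals mark the androgen receptor half-site AGAACA or its reverse complement TGTTCT, and the GC box GGGCGG or its reverse complement CCGCCC. The sequences lie, in order, at chr1:51990701-51990950 on the minus strand, chr19:11339658-11339907 on the minus strand, chr15:55270400-55270649 on the minus strand, chr1:229270861-229271110 on the plus strand and chr11:107928198-107928447 on the plus strand.
RAB3B: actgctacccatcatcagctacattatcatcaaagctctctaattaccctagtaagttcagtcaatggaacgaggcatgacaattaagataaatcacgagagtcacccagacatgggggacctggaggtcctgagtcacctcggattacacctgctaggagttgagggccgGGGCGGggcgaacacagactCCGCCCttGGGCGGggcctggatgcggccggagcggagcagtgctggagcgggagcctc
RAB3D: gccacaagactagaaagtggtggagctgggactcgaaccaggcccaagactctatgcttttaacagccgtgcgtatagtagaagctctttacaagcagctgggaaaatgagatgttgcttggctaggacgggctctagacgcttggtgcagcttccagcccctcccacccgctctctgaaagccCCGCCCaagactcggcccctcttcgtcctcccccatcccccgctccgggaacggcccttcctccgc
RAB27A: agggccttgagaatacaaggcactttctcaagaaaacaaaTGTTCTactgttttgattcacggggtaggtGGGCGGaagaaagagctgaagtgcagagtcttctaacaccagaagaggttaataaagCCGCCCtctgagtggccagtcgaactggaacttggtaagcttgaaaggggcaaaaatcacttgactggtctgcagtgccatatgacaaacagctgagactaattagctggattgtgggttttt
RAB4A: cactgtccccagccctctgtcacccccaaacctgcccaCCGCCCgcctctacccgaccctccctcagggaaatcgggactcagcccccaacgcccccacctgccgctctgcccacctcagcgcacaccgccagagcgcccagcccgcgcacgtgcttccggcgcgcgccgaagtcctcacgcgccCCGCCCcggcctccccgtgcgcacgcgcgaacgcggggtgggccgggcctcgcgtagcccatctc
RAB39A: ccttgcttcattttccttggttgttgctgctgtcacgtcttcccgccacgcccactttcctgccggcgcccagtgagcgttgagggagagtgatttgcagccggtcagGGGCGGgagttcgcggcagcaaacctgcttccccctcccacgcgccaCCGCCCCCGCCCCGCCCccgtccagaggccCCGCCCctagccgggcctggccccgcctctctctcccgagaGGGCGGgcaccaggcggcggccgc
Among these 5 stretches, that of RAB27A held 1 half-site, 210 bases before the start, and the others held GC boxes alone. RAB27A has 5 such windows in the table, and the other 4 held no half-site. The window of RAB29, which also rose in both arms, held neither motif and is not shown.

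RefSeq windows were matched for 43 of the 55 RAB genes by symbol, 61 windows in all. A half-site on either strand stood in 8 of the 61, or 13.1%, against 12.4% of all 35116 windows of the same length. The 8 windows belong to RAB13, with 2 of them, and to RAB23, RAB27A, RAB27B, RAB2B, RAB30 and RAB40B. The full palindrome, AGAACA followed by any 3 bases and then TGTTCT, stood in 0 of the 61 and in 1 of all windows, or 0.00285%. A GC box stood in 48 of the 61, or 78.7%, against 42.6% of all windows. All windows were counted whatever the level of their gene, while the RAB genes had to reach 60 counts. Windows of the same gene can overlap, as for RAB43, and each was counted. Of the genes with a half-site, RAB27A rose in DHT under both siRNAs and RAB27B fell under paxillin siRNA. RAB13, RAB23, RAB2B, RAB30 and RAB40B did not pass the test for DHT under either siRNA. A match is a run of letters and not a measured binding site.

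The libraries held between 11944906 and 32040465 counts each, and after TMM scaling 1 count is worth 0.0328 to 0.0814 CPM. The lowest total and the value of 0.0814 belong to nonspecific vehicle replicate 1. In every other library 1 count is worth at most 0.0435 CPM. PXN was at 139 to 151 CPM in nonspecific vehicle libraries and at 12.3 to 16.7 in paxillin vehicle libraries, which is a change of -90.5% in vehicle, and the change in DHT was -90.8%. KLK3, which encodes prostate-specific antigen, rose in DHT by 1.05 ± 0.11 (log2, SE) with nonspecific siRNA and by 1.21 ± 0.11 with paxillin siRNA. All 10 luminal markers examined were over 1 CPM, and their summed level was 8160 to 10600 CPM in vehicle and 16800 to 18800 CPM in DHT. None of the 4 basal markers was over 1 CPM, and 1 of 6 immune and endothelial markers was. Of 7 neuroendocrine markers 3 to 4 were over 1 CPM by group, with a summed level of 30.9 to 45.8 CPM over all libraries that was mostly ENO2, while CHGA and CHGB were at or near 0. Of 6 fibroblast markers 2 to 3 were over 1 CPM, and nearly all of their summed level was COL1A1, with COL1A2, DCN and LUM at or near 0. That sum was 39.7 to 49.8 CPM in nonspecific vehicle, 35.1 to 39 in nonspecific DHT, 35.6 to 37.5 in paxillin vehicle and 25.9 to 28.8 in paxillin DHT. The part of the luminal, neuroendocrine and fibroblast levels in the RAB results was not tested, and in bulk RNA fewer cells of a type and less RNA per cell cannot be told apart.

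In DHT, more RAB genes rose than fell. With nonspecific siRNA 20 of 54 rose and 7 fell, and with paxillin siRNA 20 rose and 8 fell, by edgeR's quasi-likelihood test at a Benjamini-Hochberg adjusted p under 0.05 over all 16115 genes tested. Among all genes, 40.5% were called with nonspecific siRNA (21.6% higher, 18.9% lower), and 50% of the RAB genes were (37% higher, 13% lower). With paxillin siRNA the shares were 38% of all genes (20.1% higher, 17.9% lower) and 51.9% of the RAB genes (37% higher, 14.8% lower). The median RAB change was 0.1 and 0.14 (log2) under nonspecific and paxillin siRNA, against -0.01 over all genes under each. Upper-quartile scaling, which moved the median of all genes to -0.08 and -0.09, gave 16 RAB genes higher and 7 lower with nonspecific siRNA and 15 higher and 8 lower with paxillin siRNA. That scaling gave 2707 genes higher and 3896 lower over the whole table with nonspecific siRNA, against 3481 and 3053 with TMM. With paxillin siRNA it gave 2262 and 3935, against 3234 and 2886.

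The siRNA arms have no library in common, but they are not independent. Same-numbered libraries of different groups deviated together (r = 0.14 to 0.48), and both comparisons came from 1 model of all 12 libraries. Of the 54 RAB genes 17 rose in both arms, or 31.5%, against 16% of all genes, and 6 fell in both, or 11.1%, against 13%. In neither arm did 22 pass, or 40.7%, against 50.5%. No RAB gene was called higher in one arm and lower in the other, and of all genes only 7 of 16115 were, or 0.0434%. Most calls were small. With nonspecific siRNA 4 genes were called at 2-fold or more (RAB39A, RAB3B, RAB4A and RAB37), while 19 were called at under 1.5-fold. The median absolute log2 change, called or not, was 0.24 for RAB genes and 0.27 for all genes. With paxillin siRNA it was 0.24 and 0.25, so small changes were not particular to the RAB genes. Groups did not overlap for 32 of the 54 genes with nonspecific siRNA, against 50.4% of all genes, and for 33 with paxillin siRNA, against 48.6%.

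**Figure D1:**
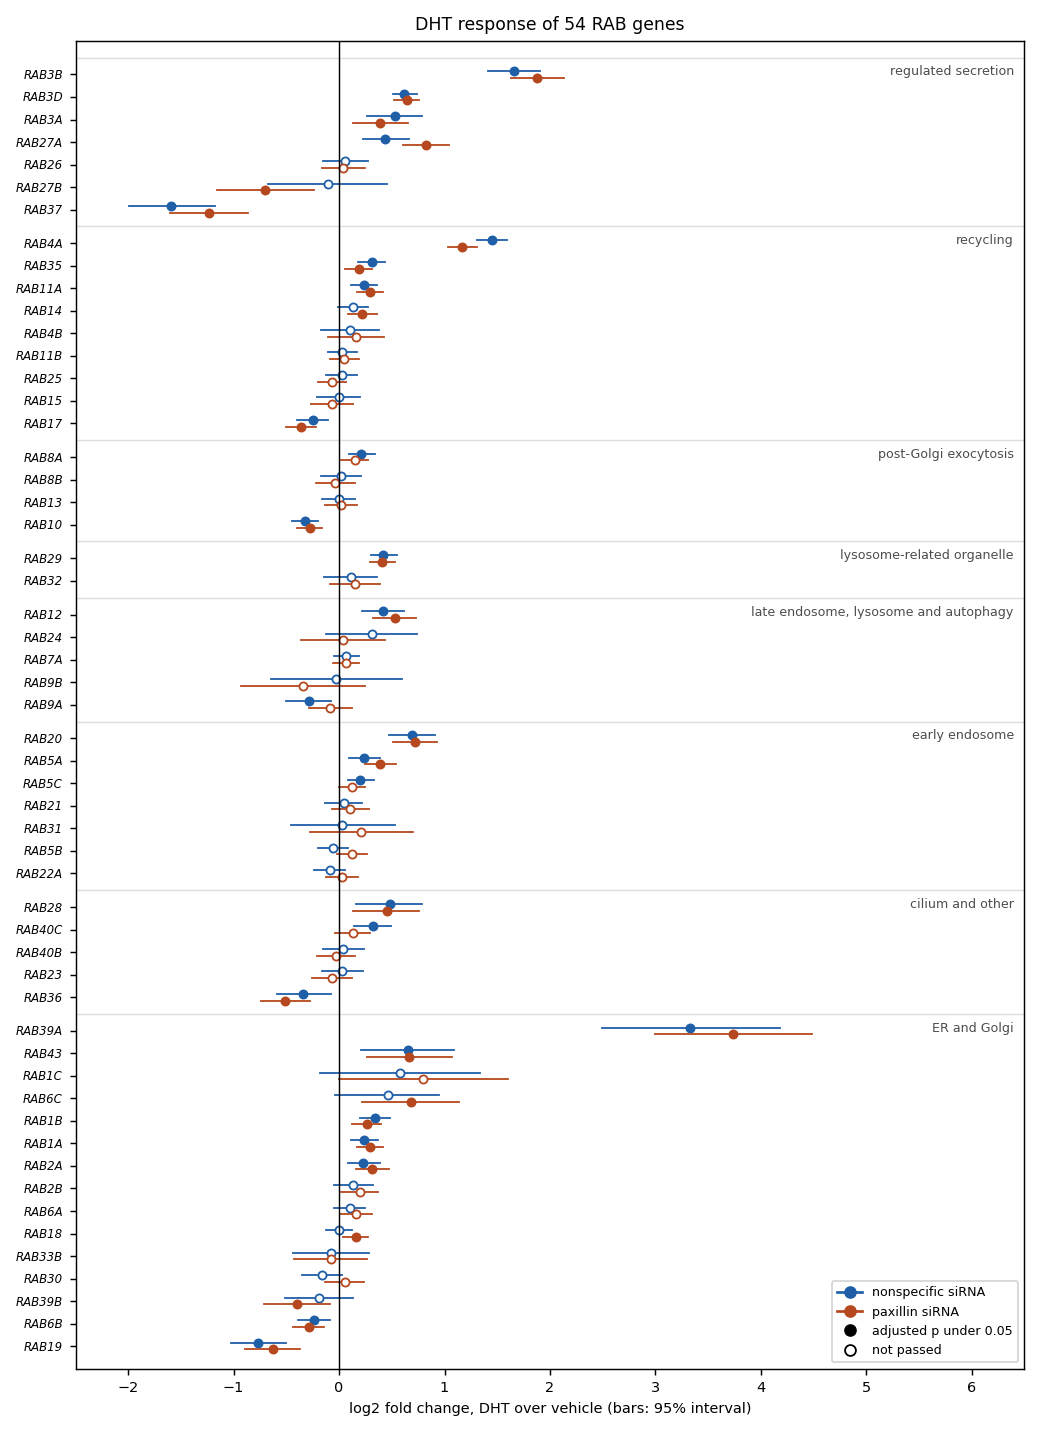
Log2 fold change of DHT over vehicle for each of the 54 tested RAB genes, grouped by role, with nonspecific siRNA in blue and paxillin siRNA in red; bars are 95% intervals, and filled points passed the test. RAB39A, RAB3B and RAB4A lie farthest right in both arms and RAB37 farthest left, while the points of the other genes lie within 1 of 0.

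The secretory RAB genes did not move as a block. Of the 11 that were tested, 5 rose with nonspecific siRNA (RAB3A, RAB3B, RAB3D, RAB27A and RAB8A), 2 fell (RAB37 and RAB10) and 4 did not pass (RAB26, RAB27B, RAB8B and RAB13). With paxillin siRNA 4 rose (RAB3A, RAB3B, RAB3D and RAB27A), 3 fell (RAB37, RAB27B and RAB10) and 4 did not pass. Their median change was 0.06 and 0.04 (log2) in the nonspecific and paxillin arms, and that of the other 43 RAB genes was 0.1 and 0.15. Over all genes, 21.6% rose and 18.9% fell with nonspecific siRNA, and 20.1% rose and 17.9% fell with paxillin siRNA. The counts of this and each later role group stand against these shares. RAB3C, the remaining RAB3 gene, had 12 counts in all and was not examined further.

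RAB3B, a RAB3 protein of regulated exocytosis, was the secretory RAB gene with the largest rise. In GENCODE 29 it lies on chromosome 1 at 51907956 to 51990764, minus strand. It was at 117, 122 and 107 CPM in the nonspecific vehicle libraries (replicates 1 to 3) and at 417, 348 and 322 CPM in nonspecific DHT. Paxillin vehicle libraries had 108, 89.3 and 72.5 CPM, and paxillin DHT libraries had 354, 338 and 302 CPM. All 6 DHT libraries were above all 6 vehicle libraries. The rise was 3.15-fold with nonspecific siRNA (1.66 ± 0.12 log2, adjusted p = 3.8e-09) and 3.68-fold with paxillin siRNA (1.88 ± 0.12, adjusted p = 6.7e-10). Ranked by log2 fold change among the 16115 genes, it was 317th from the top in the nonspecific arm and 247th in the paxillin arm.

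RAB3D, found on secretory granules of exocrine cells, started from a higher level and rose by a smaller factor. It lies on chromosome 19 at 11322046 to 11346270, minus strand. Nonspecific vehicle libraries had 155, 163 and 161 CPM and nonspecific DHT libraries 248, 250 and 241 CPM. Paxillin siRNA libraries were at 173, 171 and 163 CPM in vehicle and at 253, 264 and 275 CPM in DHT. Replicates lay close together, and the groups were far apart. The rise was 0.62 ± 0.06 (adjusted p = 8.2e-08) and 0.64 ± 0.06 (adjusted p = 5.1e-08) on the log2 scale in the nonspecific and paxillin arms.

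RAB3A, best known from synaptic vesicles, rose less and with more spread. Its nonspecific vehicle libraries had 47.6, 35.0 and 36.1 CPM and its nonspecific DHT libraries 63.0, 57.4 and 48.9 CPM. With paxillin siRNA the values were 45.4, 42.9 and 36.0 CPM in vehicle and 62.7, 53.4 and 46.9 CPM in DHT. Replicate 1 was the highest in each of the 4 groups, and no DHT library was below a vehicle library of its arm. The log2 changes were 0.53 ± 0.13 (adjusted p = 0.0027) with nonspecific siRNA and 0.39 ± 0.12 (adjusted p = 0.018) with paxillin siRNA. The latter call was lost without paxillin DHT replicate 1 (adjusted p = 0.11), without paxillin vehicle replicate 3 (0.095) and with upper-quartile scaling (0.053).

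The make-up of RAB3 counts shifted toward RAB3B in DHT. RAB3B held 36.6% ± 1.46 (SD, n = 3) of the summed RAB3A, RAB3B and RAB3D counts in nonspecific vehicle and 54.4% ± 2.57 in nonspecific DHT. In the paxillin arm it held 29.8% ± 3.25 in vehicle and 51% ± 2.28 in DHT. RAB3D went the other way, from 50.8% ± 2.2 to 37.1% ± 2.79 with nonspecific siRNA. The vehicle and DHT libraries of an arm did not overlap in the RAB3B share. No test was made of these ratios. These are shares of counts, which were not divided by gene length, so they show change between groups and not which protein is most abundant.

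RAB27A, which docks secretory granules and multivesicular endosomes at the plasma membrane, rose in both arms. It lies on chromosome 15 at 55202966 to 55319113, minus strand. Nonspecific vehicle libraries had 22.6, 20.8 and 18.9 CPM and nonspecific DHT libraries 28.5, 27.0 and 28.7 CPM. Paxillin vehicle libraries had 15.3, 15 and 11.3 CPM, the lowest of all groups, and paxillin DHT libraries 24.3, 25.5 and 23.8 CPM. The DHT change was 0.44 ± 0.10 (adjusted p = 0.0019) with nonspecific siRNA and 0.82 ± 0.10 (adjusted p = 4.4e-06) with paxillin siRNA. The test of the difference between those changes gave 0.38 ± 0.14, with an unadjusted p of 0.017 and an adjusted p of 0.46.

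RAB27B, the second RAB27 gene, was low and did not rise in DHT. It lies on chromosome 18 at 54717860 to 54895516, plus strand. Nonspecific vehicle libraries had 2.52, 3.06 and 2.67 CPM and nonspecific DHT libraries 2.10, 2.79 and 2.81 CPM, so the groups overlapped (-0.11 ± 0.27, adjusted p = 0.77). Paxillin vehicle libraries had 4.44, 8.38 and 9.01 CPM and paxillin DHT libraries 3.44, 4.88 and 5.12 CPM. In that arm the gene fell by 0.70 ± 0.22 in DHT (adjusted p = 0.018) although the groups overlapped, paxillin vehicle replicate 1 lying among the DHT libraries. The call was lost without paxillin vehicle replicate 2 (adjusted p = 0.077), paxillin vehicle replicate 3 (0.094) or paxillin DHT replicate 1 (0.091).

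The RAB27A count per RAB27B count put the pair together. It was 7.61 ± 1.16 (SD, n = 3) in nonspecific vehicle and 11.2 ± 2.1 in nonspecific DHT, and 2.16 ± 1.15 in paxillin vehicle and 5.65 ± 1.27 in paxillin DHT. The highest paxillin vehicle library, at 3.45, was below the lowest nonspecific vehicle library, at 6.81.

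**Figure D2:**
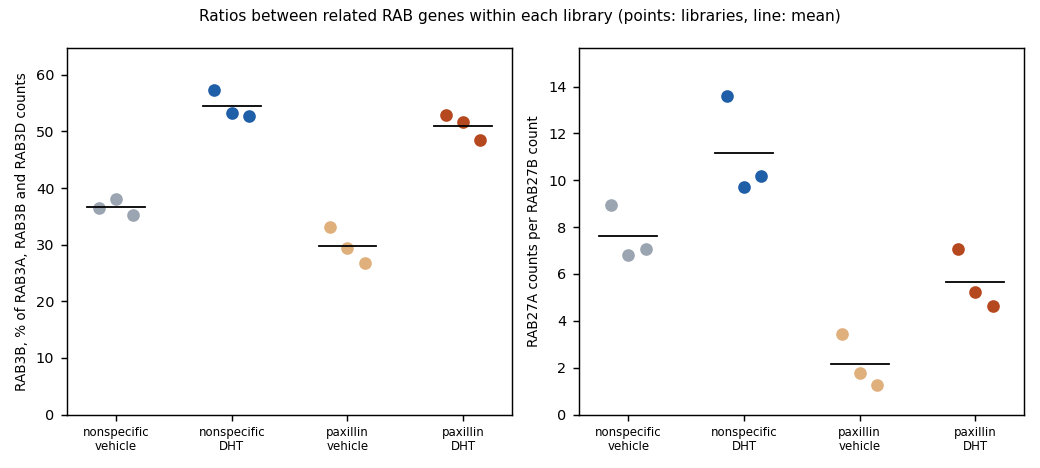
RAB3B as a percentage of the RAB3A, RAB3B and RAB3D counts (left) and RAB27A counts per RAB27B count (right), 1 point per library with the group mean as a line, for the 4 groups of 3 libraries. DHT groups lie above vehicle groups of the same siRNA in both panels, and the paxillin vehicle libraries lie lowest, at 26.7 to 33.2% and at 1.25 to 3.45.

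RAB37, which is known from secretory granules of mast cells and from regulated secretion, fell. It lies on chromosome 17 at 74670578 to 74747335, plus strand. Nonspecific vehicle libraries had 3.42, 4.07 and 4.70 CPM and nonspecific DHT libraries 1.11, 1.52 and 1.46 CPM. With paxillin siRNA it was at 4.21, 4.85 and 4.85 CPM in vehicle and at 1.97, 2.16 and 1.79 CPM in DHT. Each DHT library was below each vehicle library. It fell by 1.59 ± 0.19 (adjusted p = 3.3e-06) and by 1.23 ± 0.18 (adjusted p = 2.2e-05) on the log2 scale in the nonspecific and paxillin arms. At this level counting error weighs more than for RAB3B, since 1 count is worth up to 0.0814 CPM.

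RAB26, another RAB of regulated secretion, did not pass the test. It was at 36.4 to 46.9 CPM in nonspecific vehicle and 37.7 to 44.3 CPM in nonspecific DHT, and at 36.1 to 41.5 and 36.3 to 44.3 CPM with paxillin siRNA. Its changes were 0.06 (95% interval -0.15 to 0.27) and 0.04 (-0.16 to 0.25) on the log2 scale.

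The 4 RAB genes of transport from the Golgi to the surface gave small changes in mixed directions. RAB10, which acts in exocytosis of GLUT4 vesicles and in basolateral transport, fell from 206, 204 and 218 CPM to 166, 171 and 166 CPM with nonspecific siRNA. With paxillin siRNA it fell from 219, 203 and 203 CPM to 174, 162 and 178 CPM. The groups were apart in both arms, with log2 changes of -0.32 ± 0.06 (adjusted p = 0.00028) and -0.28 ± 0.06 (adjusted p = 0.001). RAB8A, which carries cargo to the plasma membrane and the cilium, was at 74.0, 77.4 and 80.0 CPM in nonspecific vehicle and at 88.9, 84.3 and 94.9 CPM in nonspecific DHT. That rise of 0.21 ± 0.06 (adjusted p = 0.0088) was lost without nonspecific DHT replicate 3 (0.054) and with upper-quartile scaling (0.072). Its paxillin arm values were 81.2, 86.1 and 85.8 CPM in vehicle and 94.9, 94.0 and 91.5 CPM in DHT (0.15 ± 0.06, adjusted p = 0.055), and with the replicate number as a block that change passed (adjusted p = 0.031). GENCODE 29 places an antisense gene over 37.8% of the exon bases of RAB8A, and the strand setting of the counting is not given in the sources used here. RAB8B and RAB13 did not pass: the 95% intervals were -0.17 to 0.21 and -0.22 to 0.15 for RAB8B and -0.16 to 0.15 and -0.13 to 0.17 for RAB13 (log2, nonspecific and paxillin arms).

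**Figure D3:**
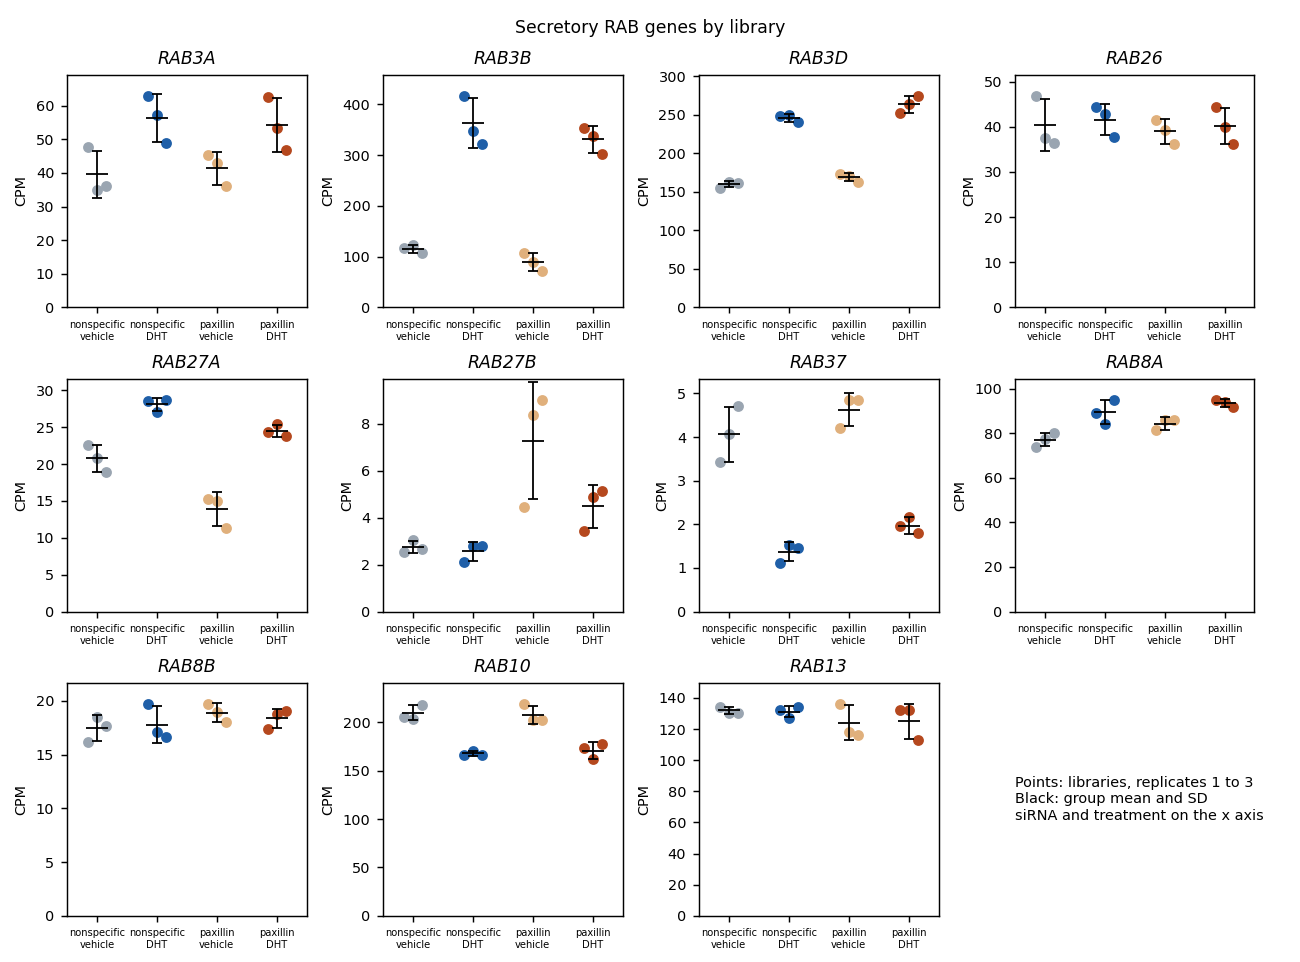
Level in CPM of the 11 tested secretory RAB genes in each library (points) with the group mean and SD (black), from 0, for nonspecific and paxillin siRNA in vehicle and DHT. RAB3B, RAB3D, RAB3A and RAB27A are higher in DHT in both arms, RAB37 and RAB10 are lower, and RAB26, RAB8B and RAB13 have overlapping groups.

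Among the 9 RAB genes of endosomal recycling, 3 rose and 1 fell with nonspecific siRNA, and 4 rose and 1 fell with paxillin siRNA. Of all genes, 40.5% and 38% were called in these arms. RAB4A, which drives fast recycling from early endosomes back to the surface, had the largest change of the 9. It was at 55.8, 49.3 and 48.4 CPM in nonspecific vehicle and at 142, 135 and 140 CPM in nonspecific DHT. Paxillin vehicle libraries had 58.9, 57.8 and 59.3 CPM and paxillin DHT libraries 141, 132 and 123 CPM. The vehicle and DHT libraries were separated by a wide gap, and the rise was 2.73-fold (1.45 ± 0.07, adjusted p = 1e-11) and 2.25-fold (1.17 ± 0.07, adjusted p = 1.4e-10) in the nonspecific and paxillin arms. The difference between the arms was -0.28 ± 0.09, with an unadjusted p of 0.0072 and an adjusted p of 0.39. RAB4A lies on chromosome 1 at 229271062 to 229305894, plus strand, and shares 19.6% of its exon bases with SPHAR on the same strand.

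RAB4B, the close relative of RAB4A, did not pass in either arm, at 6.68 to 6.93 CPM in nonspecific vehicle and 6.62 to 8.05 CPM in nonspecific DHT. The RAB4A count per RAB4B count went from 7.53 ± 0.714 (SD, n = 3) to 19.1 ± 1.41 with nonspecific siRNA and from 10.8 ± 1.12 to 21.8 ± 2.16 with paxillin siRNA. Readthrough genes cover 25.7% and 27.4% of the exon bases of RAB4B, so its counts are uncertain. RAB11A, of the recycling endosome, rose by 0.24 ± 0.06 and by 0.29 ± 0.06 (adjusted p = 0.0037 and 0.00069), while RAB11B did not pass. RAB17, an epithelial RAB of transcytosis, fell from 57.2, 55.9 and 55.3 CPM to 45.0, 45.0 and 51.1 CPM with nonspecific siRNA and from 61.3, 56.6 and 54.5 CPM to 46.2, 45.4 and 43.0 CPM with paxillin siRNA. The log2 changes of RAB17 were -0.25 ± 0.07 (adjusted p = 0.0061) and -0.36 ± 0.07 (adjusted p = 0.00035). RAB25, an epithelial RAB of the same recycling branch as RAB11A, RAB15 and RAB4B did not pass.

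RAB35, which acts in rapid recycling, rose by 0.31 ± 0.06 with nonspecific siRNA (adjusted p = 0.00056). Its rise of 0.19 ± 0.06 in the paxillin arm (adjusted p = 0.02) was lost without paxillin vehicle replicate 1 (0.092), 2 (0.052) or 3 (0.051), without paxillin DHT replicate 2 (0.093) and with upper-quartile scaling (0.21). RAB14, between the Golgi and early endosomes, rose in the paxillin arm by 0.22 ± 0.07 (adjusted p = 0.014) and was at 0.13 ± 0.07 (adjusted p = 0.14) in the nonspecific arm. That call was lost without paxillin vehicle replicate 2 (0.082) or 3 (0.068), without paxillin DHT replicate 3 (0.083) and with upper-quartile scaling (0.12).

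Of 7 early endosome RAB genes 3 rose with nonspecific siRNA and 2 with paxillin siRNA, and none fell. Over all genes 21.6% and 20.1% rose and 18.9% and 17.9% fell, and counts this small do not set the group apart. RAB20, linked to early endosomes and phagosomes, had the largest rise of the 7. It went from 10.9, 12.6 and 14.2 CPM to 21.0, 20.9 and 20 CPM with nonspecific siRNA and from 12.3, 15 and 15.7 CPM to 24.4, 23.1 and 23.1 CPM with paxillin siRNA. Every DHT library was above every vehicle library, with log2 changes of 0.69 ± 0.10 (adjusted p = 3.8e-05) and 0.72 ± 0.10 (adjusted p = 1.7e-05). RAB5A, of early endosome fusion, rose by 0.24 ± 0.07 and 0.39 ± 0.07. The call of RAB5A in the nonspecific arm was lost without nonspecific vehicle replicate 1 (adjusted p = 0.051), nonspecific DHT replicate 1 (0.053) and with upper-quartile scaling (0.065). RAB5C rose with nonspecific siRNA by 0.20 ± 0.06, a call lost without nonspecific vehicle replicate 2 (adjusted p = 0.062) and with upper-quartile scaling (0.077). RAB5B, RAB21, RAB22A and RAB31 did not pass.

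In the group of late endosomes, lysosomes and autophagy, RAB12 rose in both arms and RAB7A, the member with the highest level per exon length, did not pass. RAB12, which regulates receptor degradation and autophagy, went from 25.1, 23.8 and 22.7 CPM to 34.4, 31.0 and 30.1 CPM with nonspecific siRNA. With paxillin siRNA it went from 15.1, 12.8 and 12.9 CPM to 21.3, 20.4 and 17.2 CPM. The changes were 0.42 ± 0.09 (adjusted p = 0.0016) and 0.53 ± 0.10 (adjusted p = 0.00032), from a lower start in the paxillin arm. RAB7A, the main RAB of late endosomes, was at 352 to 385 CPM in nonspecific vehicle and 391 to 394 CPM in nonspecific DHT. RAB9A, of transport from late endosomes to the Golgi, fell by 0.29 ± 0.10 with nonspecific siRNA (adjusted p = 0.027). The call of RAB9A was lost without nonspecific vehicle replicate 3 (-0.17, adjusted p = 0.2) or nonspecific DHT replicate 1 (0.11) or 3 (0.071). RAB9B and RAB24 did not pass. The RAB24 change of 0.31 with nonspecific siRNA (adjusted p = 0.25) was 0.60 and passed without nonspecific vehicle replicate 3 (adjusted p = 0.04), and RAB24 shares 44.8% of its exon bases with MXD3. RAB29, of lysosome-related organelles and the Golgi and a partner of LRRK2, went from 59.1, 60.5 and 61.3 CPM to 85.8, 78.1 and 78.6 CPM with nonspecific siRNA. In the paxillin arm it went from 64.4, 66.8 and 64.2 CPM to 91.0, 85.4 and 83.4 CPM, so that both changes, 0.42 ± 0.06 (adjusted p = 1.9e-05) and 0.41 ± 0.06 (adjusted p = 2.1e-05), were large beside the replicate spread. RAB32, its relative in melanosome transport, did not pass.

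Of 15 tested RAB genes of the endoplasmic reticulum and Golgi, 5 rose and 2 fell with nonspecific siRNA, and 7 rose and 3 fell with paxillin siRNA. The shares called over all genes were 40.5% and 38%. The largest fold change of any RAB gene was that of RAB39A, a RAB of phagosomes and autophagy placed in this group by its list, at a very low level. Its counts were 1 to 5 per library in nonspecific vehicle and 37 to 40 in nonspecific DHT, and 3 to 7 and 41 to 81 with paxillin siRNA. In CPM these were 0.0814, 0.194 and 0.150 against 1.58, 1.7 and 1.5, and 0.0986, 0.255 and 0.145 against 2.65, 2.52 and 1.59. The libraries of the treatments were well apart, and the fitted changes were 3.33 ± 0.40 (adjusted p = 3.1e-06) and 3.74 ± 0.35 (adjusted p = 1.5e-07) on the log2 scale, sizes that depend on the few vehicle counts. RAB39A lies on chromosome 11 at 107928503 to 107963482, plus strand.

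RAB1B, of transport from the endoplasmic reticulum to the Golgi, was the RAB gene with the highest level per exon length, at 239 CPM per kb over the 12 libraries, before RAB7A at 145 and RAB25 at 61.8 CPM per kb. It went from 382, 418 and 454 CPM to 551, 505 and 531 CPM with nonspecific siRNA and from 438, 445 and 444 CPM to 545, 536 and 511 CPM with paxillin siRNA. The changes of 0.34 ± 0.07 (adjusted p = 0.00059) and 0.26 ± 0.07 (adjusted p = 0.0048) were small in fold and large in counts. RAB1A, its near relative, rose by 0.24 ± 0.06 and 0.29 ± 0.06 in the nonspecific and paxillin arms. RAB2A, of the same early secretory path, rose by 0.23 ± 0.08 and 0.31 ± 0.08, and its call in the nonspecific arm was lost without nonspecific vehicle replicate 1 (adjusted p = 0.08) or nonspecific DHT replicate 3 (0.062) and with upper-quartile scaling (0.096). RAB18, of lipid droplets and the endoplasmic reticulum, rose in the paxillin arm by 0.16 ± 0.06 (adjusted p = 0.033), and the difference of its responses between the arms was 0.16 ± 0.08 (adjusted p = 0.59). The call in the paxillin arm was lost without nonspecific vehicle replicate 3 (0.051), paxillin vehicle replicate 2 (0.15), paxillin vehicle replicate 3 (0.12), paxillin DHT replicate 2 (0.12) or paxillin DHT replicate 3 (0.075), with upper-quartile scaling (0.35), with no filter on low counts (0.13) and with the compared groups alone (0.056).

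RAB43, of Golgi transport, went from 1.63, 1.55 and 2.40 CPM to 3.6, 2.57 and 2.77 CPM with nonspecific siRNA and from 2.07, 2.15 and 2.17 CPM to 3.47, 3.11 and 3.53 CPM with paxillin siRNA. The changes were 0.65 ± 0.21 (adjusted p = 0.018) and 0.66 ± 0.19 (adjusted p = 0.011). The nonspecific call was lost without nonspecific vehicle replicate 1 (0.05) or 2 (0.1) or nonspecific DHT replicate 1 (0.099), and 79.3% of the exon bases of RAB43 also belong to the readthrough gene ISY1-RAB43. RAB6C, an intronless copy nearly identical to RAB6A whose reads cannot be cleanly assigned, rose in the paxillin arm by 0.68 ± 0.22 (adjusted p = 0.021). Its call was lost without paxillin vehicle replicate 2 (0.11) or paxillin DHT replicate 2 (0.08) or 3 (0.062), and its change in the nonspecific arm was 0.46 ± 0.24 (adjusted p = 0.14). RAB6A itself did not pass, at 0.16 in the paxillin arm, but passed there with the replicate block (adjusted p = 0.033).

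RAB19, a little-studied RAB of the Golgi, fell from 9.53, 10.6 and 12.5 CPM to 6.33, 6.79 and 6.29 CPM with nonspecific siRNA and from 10.1, 9.18 and 11.1 CPM to 6.16, 6.25 and 7.30 CPM with paxillin siRNA. No DHT library reached a vehicle library, and the changes were -0.77 ± 0.13 (adjusted p = 1e-04) and -0.63 ± 0.12 (adjusted p = 0.00056). RAB6B, a neuronal form of the Golgi RAB6, fell by 0.24 ± 0.07 and 0.29 ± 0.07 in the nonspecific and paxillin arms (adjusted p = 0.012 and 0.003). The first of these was lost without nonspecific DHT replicate 3 (adjusted p = 0.087). RAB39B fell in the paxillin arm by 0.40 ± 0.15 (adjusted p = 0.04), a call lost without paxillin vehicle replicate 1 (0.098) or 2 (0.1), paxillin DHT replicate 1 (0.087) or 3 (0.14), and with no filter on low counts (0.053). RAB2B, RAB30, RAB33B and RAB1C did not pass in either arm. GENCODE 29 lists RAB1C as a processed pseudogene, so that its reads cannot be told apart from those of its parent gene.

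In the last group, cilium and other, RAB28 and RAB40C rose and RAB36 fell with nonspecific siRNA. RAB28, of the photoreceptor cilium, rose by 0.48 ± 0.15 (adjusted p = 0.016) and by 0.45 ± 0.15 (adjusted p = 0.025) in the nonspecific and paxillin arms. The first call was lost without nonspecific vehicle replicate 3 (0.071) or nonspecific DHT replicate 1 (0.088), and the second without paxillin vehicle replicate 2 (0.072), paxillin vehicle replicate 3 (0.13), paxillin DHT replicate 1 (0.082) or paxillin DHT replicate 2 (0.085), and with upper-quartile scaling (0.066). RAB40C, which carries a SOCS box of ubiquitin ligases, rose by 0.32 ± 0.08 with nonspecific siRNA (adjusted p = 0.005) and was at 0.13 ± 0.08 (adjusted p = 0.24) with paxillin siRNA. RAB36, of late endosomes and lysosome positioning, went from 17.9, 16.7 and 17.6 CPM to 12.9, 13.1 and 15.1 CPM with nonspecific siRNA and from 26.3, 33.7 and 36.9 CPM to 20.1, 23.6 and 24.3 CPM with paxillin siRNA. The fall was 0.51 ± 0.11 in the paxillin arm (adjusted p = 0.0012), and -0.34 ± 0.12 (adjusted p = 0.032) was the change in the nonspecific arm. The nonspecific call was lost without nonspecific vehicle replicate 1 (0.072), 2 (0.052) or 3 (0.082), nonspecific DHT replicate 1 (0.11) or 2 (0.1), and with limma-voom (0.065). RAB23 and RAB40B did not pass.

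Added up, the 55 RAB genes held 3380 ± 103 CPM (SD, n = 3) in nonspecific vehicle and 4040 ± 101 in nonspecific DHT, and 3480 ± 43.5 and 4150 ± 45.7 with paxillin siRNA. RAB3B alone made up 37.5% and 36.1% of the difference between DHT and vehicle in the nonspecific and paxillin arms. RAB1B made up 16.8% and 13.2%, RAB4A 13.3% and 11%, and RAB3D 13.1% and 14.2%. These sums are not corrected for gene length.

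Transcripts of the proteins that act with RAB3 and RAB27 changed in both directions. Of 13 tested effectors of RAB3 and RAB27, 3 rose and 6 fell with nonspecific siRNA, and 2 rose and 6 fell with paxillin siRNA. Over all genes, 21.6% rose and 18.9% fell with nonspecific siRNA, and 20.1% rose and 17.9% fell with paxillin siRNA. These shares are the background for the counts of every partner list below. SYTL2, a synaptotagmin-like effector that ties RAB27 vesicles to the plasma membrane, was at 145, 136 and 138 CPM in nonspecific vehicle and 14.3, 14.9 and 17.7 CPM in nonspecific DHT. In the paxillin arm it was at 138, 126 and 160 CPM in vehicle and 17.1, 21.6 and 35.7 CPM in DHT. SYTL2 therefore moved opposite to RAB27A in both arms, falling by 3.15 ± 0.18 (adjusted p = 1.8e-10) and 2.52 ± 0.17 (adjusted p = 1.8e-09) on the log2 scale. RIMS4, of the RIM family of RAB3 effectors, fell by 2.83 ± 0.14 and 2.46 ± 0.13, and SYTL3 fell by 1.27 ± 0.33 and 1.25 ± 0.32. MLPH, the melanophilin that links RAB27A to myosin, went from 79.8, 68.5 and 65.8 CPM to 145, 119 and 138 CPM with nonspecific siRNA and rose by 0.92 ± 0.09 and 0.69 ± 0.09 in the nonspecific and paxillin arms. RPH3AL and SYTL1 rose with nonspecific siRNA by 0.50 ± 0.11 and 0.29 ± 0.07. In the paxillin arm their changes were 0.20 (adjusted p = 0.15) and 0.02 (adjusted p = 0.85). The differences between the arms, -0.30 ± 0.15 and -0.27 ± 0.09, did not pass (adjusted p = 0.59 and 0.44). In vehicle both genes were higher with paxillin siRNA, by 0.58 ± 0.11 and 0.44 ± 0.07 (adjusted p = 0.0015 and 0.00027).

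Of 36 other RAB effectors tested, 14 rose and 9 fell with nonspecific siRNA, and 13 rose and 5 fell with paxillin siRNA. MICAL1, an actin-oxidising enzyme that binds RAB proteins including RAB8 and RAB10, was at 57.7, 50.3 and 46.7 CPM in nonspecific vehicle and 318, 273 and 283 CPM in nonspecific DHT. With paxillin siRNA it was at 52.5, 61.8 and 59.7 CPM in vehicle and 370, 352 and 358 CPM in DHT. Its rise of 2.51 ± 0.09 and 2.63 ± 0.08 (adjusted p = 1.7e-13 and 7.1e-14) was larger than that of any RAB gene other than RAB39A. BICD2, which links RAB6 vesicles to dynein, rose by 1.25 ± 0.07 and 1.13 ± 0.07, and LRRK1 rose by 1.17 ± 0.19 and 0.66 ± 0.17. INPP5B, a lipid phosphatase, MYO5B, a myosin that carries RAB11 vesicles, and RILP, a RAB7 effector, fell by 0.51 ± 0.09, 0.51 ± 0.11 and 0.50 ± 0.18 with nonspecific siRNA. The RILP call was lost without nonspecific vehicle replicate 2 (adjusted p = 0.11) or 3 (0.1) and without nonspecific DHT replicate 1 (0.065), 2 (0.062) or 3 (0.071). In the paxillin arm RILP fell by 0.61 ± 0.16 (adjusted p = 0.0057). INPP5B and MYO5B fell there by 0.32 ± 0.09 and 0.44 ± 0.10 (adjusted p = 0.0089 and 0.0024).

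Genes of RAB activators and inactivators also changed in both directions. Of 37 exchange factors tested, 9 rose and 11 fell with nonspecific siRNA, and 8 rose and 10 fell with paxillin siRNA. The falls in ST5 (also called DENND2B, a RAB13 activator), DENND1B (a RAB35 activator) and DENND2C were 1.14 ± 0.12, 1.12 ± 0.09 and 0.81 ± 0.18 with nonspecific siRNA. In the paxillin arm ST5 and DENND1B fell by 1.05 ± 0.11 and 1.15 ± 0.09, and DENND2C was at -0.32 (adjusted p = 0.15). The difference between the arms for DENND2C, 0.50 ± 0.25, did not pass (adjusted p = 0.59). RIC1, part of the RAB6 exchange factor, ANKRD27, a RAB21 activator, and FAM45A rose by 0.55 ± 0.07, 0.54 ± 0.11 and 0.32 ± 0.08 with nonspecific siRNA. With paxillin siRNA they rose by 0.54 ± 0.07, 0.46 ± 0.11 and 0.30 ± 0.07. Of 36 GTPase-activating proteins tested, 11 rose and 4 fell with nonspecific siRNA, and 15 rose and 4 fell with paxillin siRNA. Of all genes, 40.5% and 38% were called in the nonspecific and paxillin arms. TBC1D8 rose by 1.70 ± 0.08 and 1.47 ± 0.08, and TBC1D4, which acts on RAB10 and other RAB proteins of GLUT4 transport, rose by 1.29 ± 0.12 and 1.56 ± 0.12. TBC1D4 thus rose where RAB10 fell. SGSM1 and TBC1D7 fell by 0.82 ± 0.20 and 0.37 ± 0.09 with nonspecific siRNA and by 0.81 ± 0.20 and 0.31 ± 0.08 with paxillin siRNA. RABGAP1L fell with nonspecific siRNA by 0.29 ± 0.09 (adjusted p = 0.019), a call lost without nonspecific DHT replicate 2 (0.056) or 3 (0.12) and with no filter on low counts (0.063). In the paxillin arm its change of -0.12 did not pass (adjusted p = 0.35).

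Of 16 genes of RAB prenylation, extraction and membrane delivery, 7 rose and 1 fell with nonspecific siRNA, and 8 rose and none fell with paxillin siRNA. RABAC1, a receptor for prenylated RAB proteins, rose by 0.55 ± 0.10 and 0.37 ± 0.10, the latter lost without paxillin DHT replicate 1 (adjusted p = 0.053). YIF1A rose by 0.45 ± 0.07 and 0.28 ± 0.07. YIF1B rose by 0.39 ± 0.08 with nonspecific siRNA and was at 0.19 ± 0.08 with paxillin siRNA (adjusted p = 0.063), a change that passed with the replicate block (adjusted p = 0.0069), with no filter on low counts (0.033), with the compared groups alone (0.041) and without nonspecific DHT replicate 1 (0.032). CHML, the second escort protein, fell by 0.26 ± 0.10 with nonspecific siRNA (adjusted p = 0.046), a call lost without any 1 of the 6 nonspecific libraries (adjusted p = 0.059 to 0.14), without paxillin DHT replicate 1 (0.051), paxillin vehicle replicate 2 (0.056) or paxillin vehicle replicate 3 (0.051) and with no filter on low counts (0.14). Of 9 genes of the exocyst, the complex that tethers secretory vesicles, 1 rose and 2 fell with nonspecific siRNA, and 4 rose and none fell with paxillin siRNA. The shares called over all genes were 40.5% and 38%. EXOC7 rose by 0.26 ± 0.05 and 0.29 ± 0.05. EXOC6B and EXOC2 fell by 0.32 ± 0.08 and 0.27 ± 0.09 with nonspecific siRNA. The EXOC2 call was lost without nonspecific vehicle replicate 3 (adjusted p = 0.1) or nonspecific DHT replicate 2 (0.06) or 3 (0.065) and with no filter on low counts (0.057), and in the paxillin arm its change of -0.20 passed with the replicate block (adjusted p = 0.033), with upper-quartile scaling (0.011) and without paxillin vehicle replicate 1 (0.046) or paxillin DHT replicate 3 (0.025).

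**Figure D4:**
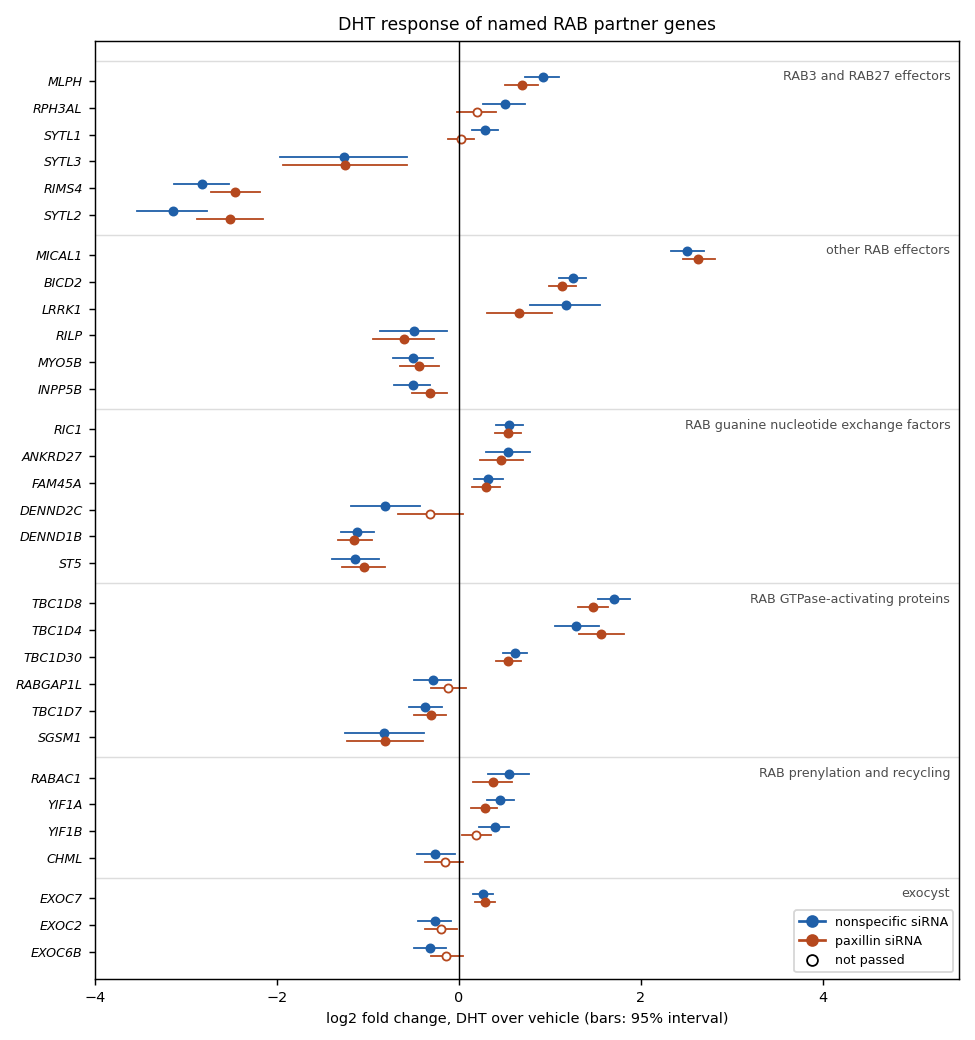
Log2 fold change of DHT over vehicle for the named genes of 6 lists of RAB partners, with nonspecific siRNA in blue and paxillin siRNA in red; bars are 95% intervals and open points did not pass. SYTL2 and RIMS4 lie farthest left, at -3.15 and -2.83 with nonspecific siRNA, and MICAL1 farthest right, at 2.51.

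The second question of the design was whether paxillin siRNA changed the RAB genes, and they were called at shares close to those of all genes. In vehicle 6 of 54 rose and 4 fell, or 18.5%, against 20.5% of all genes (10.7% higher, 9.78% lower). In DHT 5 rose and 1 fell, or 11.1%, against 13.3% of all genes (6.34% higher, 7% lower). Groups did not overlap for 16 and 18 of the 54 genes, against 35.9% and 32% of all genes. These comparisons share libraries with those of DHT. The number that fell in vehicle was 2 without replicate 2 of either siRNA or replicate 3 of paxillin siRNA. The number that rose in DHT was 3 without nonspecific DHT replicate 1 and 2 without replicates 2 or 3 of either DHT group.

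RAB27B, RAB36 and RAB12 were called under both treatments and moved most. RAB27B was 2.61-fold higher with paxillin siRNA in vehicle (1.38 ± 0.24, adjusted p = 0.00069) and 1.73-fold higher in DHT (0.79 ± 0.25, adjusted p = 0.04). All 6 paxillin libraries were above all 6 nonspecific ones. The call in DHT was lost without nonspecific DHT replicate 1 (0.14), 2 (0.079) or 3 (0.066), without paxillin DHT replicate 2 (0.12) or 3 (0.15) and with limma-voom (0.097). RAB36 was higher by 0.89 ± 0.11 (adjusted p = 5.3e-05) and 0.72 ± 0.12 (adjusted p = 0.00062), and here too every paxillin library was above every nonspecific library. RAB12 was lower by -0.80 ± 0.10 (adjusted p = 4e-05) in vehicle and by -0.70 ± 0.09 (adjusted p = 0.00014) in DHT. The highest paxillin DHT library of RAB12, at 21.3 CPM, was below the lowest nonspecific vehicle library, at 22.7 CPM. RAB40B, like RAB40C a SOCS box protein, was higher by 0.37 ± 0.09 in vehicle (adjusted p = 0.0073) and by 0.29 ± 0.09 in DHT (adjusted p = 0.035). The call of RAB40B in DHT was lost without nonspecific DHT replicate 2 (0.078) or 3 (0.15), paxillin DHT replicate 1 (0.098), 2 (0.05) or 3 (0.091), with the compared groups alone (0.06) and with no filter on low counts (0.058).

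In vehicle, 2 secretory RAB genes were lower with paxillin siRNA. RAB27A was lower by -0.57 ± 0.10 (adjusted p = 0.001), opposite to RAB27B, and in DHT its difference was -0.19 ± 0.10 (adjusted p = 0.21). RAB3B was lower by -0.35 ± 0.12 (adjusted p = 0.041), with overlapping groups, since paxillin vehicle replicate 1, at 108 CPM, was above nonspecific vehicle replicate 3, at 107 CPM. The RAB3B call was lost without nonspecific vehicle replicate 1 (0.088) or 2 (0.16), nonspecific DHT replicate 2 (0.055), paxillin vehicle replicate 2 (0.11) or 3 (0.23), paxillin DHT replicate 2 (0.055), and with the compared groups alone (0.05). Without paxillin vehicle replicate 3 the RAB3B difference was -0.21. In DHT the RAB3B difference was -0.13 (adjusted p = 0.5). RAB3A, RAB3D, RAB26, RAB37 and the 4 genes of transport to the surface did not pass under either treatment.

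The remaining calls for paxillin siRNA were small. RAB40C was higher in vehicle by 0.38 ± 0.08 (adjusted p = 0.0033), and RAB30, a Golgi RAB, was higher in DHT by 0.40 ± 0.09 (adjusted p = 0.0057), from 20.9, 20.8 and 20.7 CPM to 24.7, 29.1 and 28.8 CPM. RAB4A and RAB25 were higher in vehicle by 0.20 ± 0.07 each (adjusted p = 0.039 and 0.037), and in DHT their differences were -0.08 and 0.11. The RAB25 call was lost without nonspecific vehicle replicate 2 (0.11) or 3 (0.088), paxillin vehicle replicate 2 (0.15), paxillin vehicle replicate 3 (0.079) or nonspecific DHT replicate 2 (0.051). The RAB4A call was lost without nonspecific vehicle replicate 2 or 3 (0.13 each), nonspecific DHT replicate 2 (0.051), paxillin vehicle replicate 1 (0.065), 2 (0.067) or 3 (0.097), paxillin DHT replicate 2 (0.052), and with the compared groups alone (0.059). RAB22A, of early endosomes, was lower in vehicle by -0.26 ± 0.07 (adjusted p = 0.016), a call lost without nonspecific vehicle replicate 2 (0.11) or 3 (0.056), paxillin vehicle replicate 2 (0.06) or 3 (0.1), and with no filter on low counts (0.051). RAB5B was higher in DHT by 0.21 ± 0.07 (adjusted p = 0.043). Its call was lost without nonspecific vehicle replicate 2 (0.056), any nonspecific DHT replicate (0.085 to 0.12), paxillin vehicle replicate 2 (0.063), paxillin DHT replicate 2 (0.11) or 3 (0.19), and with upper-quartile scaling (0.055).

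With the replicate number as a block, 4 more RAB genes passed for paxillin siRNA in vehicle and 2 more in DHT. In vehicle these were RAB15 (0.18, adjusted p = 0.043), RAB24 (0.53, adjusted p = 0.031), RAB35 (0.16, adjusted p = 0.026) and RAB28 (-0.36, adjusted p = 0.035). In DHT they were RAB28 (-0.37, adjusted p = 0.024) and RAB2A (0.17, adjusted p = 0.034). The block raised the share called over all genes as well, to 28.3% in vehicle and 21.6% in DHT, and the RAB shares with it were 25.9% and 14.8%.

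RAB24, whose difference in vehicle was 0.55 (adjusted p = 0.063), also passed with DESeq2 (0.036), with no filter on low counts (0.0028) and with the compared groups alone (0.049). It passed without nonspecific vehicle replicate 3 (0.84, adjusted p = 0.013) and without paxillin DHT replicate 1 (0.032) or 3 (0.037). RAB30 in vehicle, not passed with all libraries, was at 0.29 without nonspecific vehicle replicate 2 (adjusted p = 0.049).

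**Figure D5:**
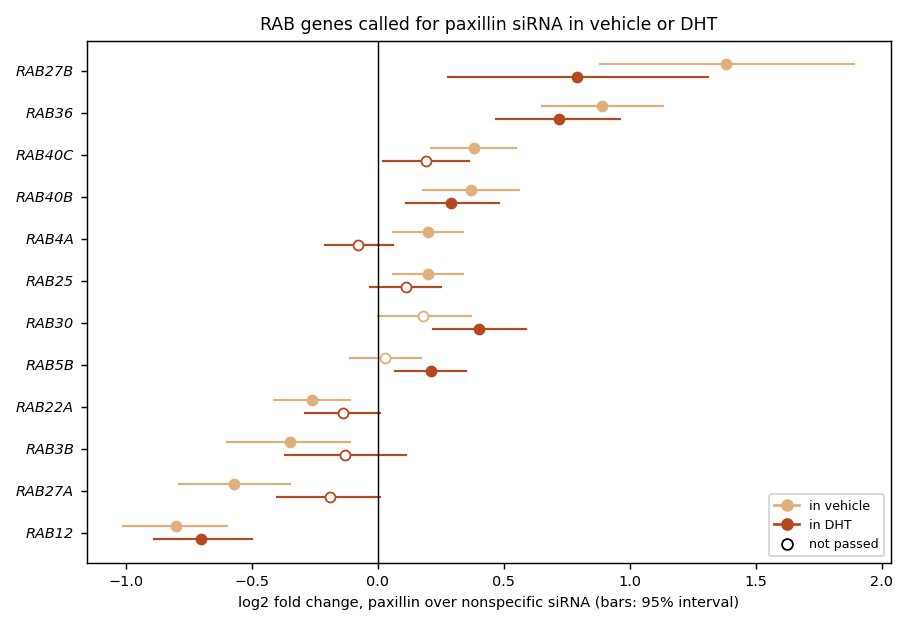
Log2 fold change of paxillin over nonspecific siRNA, in vehicle (tan) and in DHT (red), for the 12 RAB genes called under either treatment; bars are 95% intervals and open points did not pass. RAB27B and RAB36 lie farthest right and RAB12 farthest left under both treatments.

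The DHT response of no RAB gene was called different between the siRNA arms. In the test of that difference 0 of 54 RAB genes passed, against 8 of 16115 genes, or 0.0496%. In each list of RAB partners 0 of the tested genes passed as well. At an unadjusted p under 0.05 there were 2, RAB4A and RAB27A, by edgeR, 2 by DESeq2, 2 by limma-voom and 5 with the replicate block, under which 97 of all genes passed. RAB3B, the secretory gene that rose most, had a difference of 0.22 (95% interval -0.12 to 0.57) between its log2 responses.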

How the data were processed

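RNA of 12 C4-2 libraries, 3 per group, was sequenced after a stranded TruSeq mRNA preparation, per the labels' protocols. The authors deposited raw counts per gene symbol. The submitters' processing notes name Trimmomatic 0.36, STAR 2.5.2b, featureCounts of Subread 1.5.0p3 and the build GRCh38. No source used here gives the annotation release or strand setting, so overlapping genes are uncertain. Beyond the overlaps named above, a gene on the opposite strand shared 57.7% of the exon bases of RAB23 and 29.3% of RAB1B. For RAB6C, RAB1A and RAB3D that share was 26.1%, 22.9% and 20.5%. A gene on the same strand shared 28.8% of the exon bases of RAB5C and 24.8% of RAB13. Symbols were matched to GENCODE 29 for positions and exon lengths (55 of 55 RAB genes).

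Counts were fitted in R 4.3.3 with edgeR 4.0.16 (quasi-likelihood F-test, TMM, filterByExpr with minimum count 10 and total 15, 16115 genes kept, 4 group means over all 12 libraries, SE from the F statistic). The threshold was a Benjamini-Hochberg adjusted p of 0.05. The steps were checked on simulated counts. Same-numbered libraries deviated together (18 pairs, r = 0.14 to 0.48 over 10699 genes, against -0.43 to 0.21 for other pairs), so the numbers were taken to pair the libraries, and a block was an alternative. Others were DESeq2 1.42.0, limma-voom (limma 3.58.1), scaling by RLE or upper quartile, a fit with no filter, a fit of only the groups compared, a threshold of 0.01 and leaving out each library.

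Levels are CPM of TMM-scaled totals. The RAB genes, roles and partner lists were chosen with earlier results of these data known. Named were all secretory RAB genes, up to 8 rises and 8 falls per DHT comparison and 6 and 6 per paxillin siRNA comparison among the others, and up to 3 rises and 3 falls per partner list where a group mean reached 1 CPM. Further RAB genes were named after their values were seen, to account for each one.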

Additional observations from a re-analysis of the deposited data

How the results depend on the processing

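No RAB or partner gene that passed changed direction under any alternative run. The counts of kept calls that come next leave out the threshold of 0.01. For DHT with nonspecific siRNA, 14 of 20 rises and 4 of 7 falls kept their call in all other settings. For DHT with paxillin siRNA, 14 of 20 rises and 6 of 8 falls did. For paxillin siRNA, 4 of 6 rises and 2 of 4 falls in vehicle did, and 2 of 5 rises and the 1 fall in DHT. Leaving out 1 library at a time gave 17 to 20 rises and 5 to 7 falls for DHT with nonspecific siRNA, and 15 to 20 and 6 to 8 with paxillin siRNA. For paxillin siRNA it gave 4 to 7 rises and 2 to 4 falls in vehicle and 2 to 5 rises and 1 fall in DHT, and for the difference between the arms 0 and 0. At an adjusted p under 0.01, DHT gave 13 rises with paxillin siRNA and 4 falls with nonspecific siRNA, and paxillin siRNA gave 2 falls in vehicle and 2 rises in DHT. With the replicate block, paxillin siRNA gave 2 falls in DHT, no call was lost and the difference between the arms stayed at 0. The compared groups alone cannot give that difference, so it was not run there. Depth limits the tested RAB genes with few counts over the 12 libraries, such as RAB1C (226), RAB9B (317) and RAB39A (326), where 1 count is worth up to 0.0814 CPM.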
